A study of Rattus norvegicus with 6 samples.

Results

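Transcription from both strands of 1 sequence was examined in rat INS-1 cells with 186 pairs of array probes that read opposite strands. A probe is a synthetic DNA oligo of 60 bases fixed to the array, and labelled RNA of 1 strand binds it. A pair was formed where at least 25 bases in a row of a probe equalled the reverse complement of a stretch of another probe, and stretches found in more than 10 probes were dropped. The rule used sequence alone and no measured value of a probe, though it was chosen with earlier results of these data known. It gave 343 probes out of 45751, of which 321 belong to 1 pair and 22 to more. Pairs that share a probe fall into 160 linked groups, 145 of them with 1 pair, 10 with 2 pairs and 5 with more, and the largest has 6 pairs.

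INS-1 is an established insulin-secreting line from a rat insulinoma, used in place of primary pancreatic beta cells. The gardenia compound geniposide, an iridoid glucoside, is described in the labels as activating the receptor of the incretin GLP-1. Total RNA from 3 samples exposed to geniposide (10 µmol/L, 24 h) and from 3 untreated samples, all of the same line, was measured on 1-colour arrays. Nothing in the labels tells whether replicates were separate cultures, and p-values therefore reflect sample-to-sample spread that may be technical. The files give the probes running numbers in place of gene names, so beta-cell markers could not be looked up, and which strand of a pair is the coding one is not given. The share of probes well above background ran from 61.3% to 67.4% over the arrays and was lowest on geniposide 3, so counts between groups are also given without that array.

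Many loci of mammalian genomes are transcribed from both strands. Such transcripts can overlap at their starts, at their ends or along their whole length, and an antisense RNA can act on its partner through transcription, through pairing of the RNAs or through chromatin, or have no effect on it. Hairpin precursors of miRNAs are a special case, because the complement of a hairpin can also fold into a hairpin, and several miRNA loci are annotated on both strands. A miRNA finds its targets mainly through its seed, a short stretch near its 5′ end.

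The sequences of 4 pairs show how the probes lie to each other. All sequences run 5′ to 3′, capitals mark the bases that are the reverse complement of the partner, and the brighter strand comes first. Probe RATLNCRNA_37368 is shown because all 60 of its bases are shared with its partner, RATLNCRNA_20819 because its strands had the largest ratio, RATLNCRNA_43259 because both of its strands were bright, and RATLNCRNA_12473 because its partner was well above background on no array.
RATLNCRNA_37368: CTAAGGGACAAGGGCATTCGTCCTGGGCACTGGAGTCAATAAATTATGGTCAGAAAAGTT
RATLNCRNA_30485: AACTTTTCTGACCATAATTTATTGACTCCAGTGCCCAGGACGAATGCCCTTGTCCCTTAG
RATLNCRNA_20819: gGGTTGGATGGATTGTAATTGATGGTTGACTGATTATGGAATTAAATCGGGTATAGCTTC
RATLNCRNA_42844: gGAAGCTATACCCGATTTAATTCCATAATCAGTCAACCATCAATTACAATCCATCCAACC
RATLNCRNA_43259: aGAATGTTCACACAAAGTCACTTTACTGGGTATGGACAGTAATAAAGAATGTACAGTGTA
RATLNCRNA_13328: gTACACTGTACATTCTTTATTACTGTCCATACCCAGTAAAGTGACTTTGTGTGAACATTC
RATLNCRNA_12473: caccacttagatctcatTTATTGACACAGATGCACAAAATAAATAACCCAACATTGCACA
RATLNCRNA_9851: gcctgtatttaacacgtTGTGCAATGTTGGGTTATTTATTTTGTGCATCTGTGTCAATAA

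Another 4 pairs are shown because the comparison of geniposide with untreated samples turns on them. RATLNCRNA_29681 pairs with several linked probes, and its capitals here refer to RATLNCRNA_723.
RATLNCRNA_723: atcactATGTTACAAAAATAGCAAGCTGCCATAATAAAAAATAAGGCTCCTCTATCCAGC
RATLNCRNA_29681: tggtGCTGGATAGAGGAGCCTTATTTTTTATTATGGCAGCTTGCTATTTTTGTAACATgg
RATLNCRNA_21797: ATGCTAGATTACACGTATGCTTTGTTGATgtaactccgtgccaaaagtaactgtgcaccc
RATLNCRNA_31288: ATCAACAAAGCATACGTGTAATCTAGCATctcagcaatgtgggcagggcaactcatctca
RATLNCRNA_4542: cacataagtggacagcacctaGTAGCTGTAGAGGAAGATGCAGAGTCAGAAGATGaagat
RATLNCRNA_1872: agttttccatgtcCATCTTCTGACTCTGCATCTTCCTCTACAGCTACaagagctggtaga
RATLNCRNA_45652: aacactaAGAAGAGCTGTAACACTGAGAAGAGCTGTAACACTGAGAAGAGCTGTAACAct
RATLNCRNA_13484: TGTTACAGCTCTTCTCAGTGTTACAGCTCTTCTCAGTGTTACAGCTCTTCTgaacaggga

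The next sequences belong to miRNA hairpins that RefSeq annotates on both strands of 1 locus. RATLNCRNA_7181 lies in Mir3578 and RATLNCRNA_17052 in Mir369, which overlap on chromosome 6, while RATLNCRNA_21506 lies in Mirlet7e and RATLNCRNA_15421 in Mir3596c, which overlap on chromosome 1. In the mature miRNAs, taken from RefSeq on the build GRCr8, capitals mark the seed, bases 2 to 8.
RATLNCRNA_7181: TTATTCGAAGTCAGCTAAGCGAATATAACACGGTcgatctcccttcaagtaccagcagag
RATLNCRNA_17052: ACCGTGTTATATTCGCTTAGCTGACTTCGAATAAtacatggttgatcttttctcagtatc
RATLNCRNA_21506: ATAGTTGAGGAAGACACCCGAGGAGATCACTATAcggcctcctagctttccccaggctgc
RATLNCRNA_15421: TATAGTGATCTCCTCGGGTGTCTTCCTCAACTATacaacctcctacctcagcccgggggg
rno-miR-3578: gCGAAUAUaacacggucgaucu
rno-miR-369-5p: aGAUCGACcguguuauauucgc
rno-miR-369-3p: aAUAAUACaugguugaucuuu
rno-let-7e-5p: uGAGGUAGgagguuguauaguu
rno-miR-3596c: aCUAUACAaccuccuaccuca

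The shared stretch ran from 25 to 60 bases with a median of 41. In 53 pairs it held 50 bases or more, and in 3 pairs it was the whole probe. A total of 159 pairs had no mismatch anywhere in the overlap of the probes, and 27 had at least 1. The probes overlapped at their 5′ ends in 136 pairs, at their 3′ ends in 47, and over their whole length in 3. Since one stretch is the complement of the other, both strands of a pair have the same GC content in it. Over whole probes the median GC content was 43.3% in members and 41.7% in all probes. In RefSeq's promoter windows on GRCr8, short stretches around gene starts, 6 members (1.75%) and 655 of all probes (1.43%) had an exact match.

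Members were detected more often than the array's probes as a whole. A probe counts as detected where the scanner software called it well above background on all 6 arrays. This held for 240 of 343 members (70.0%), against 60.1% of the 45718 probes analysed, while 72 members were detected on no array and 31 on some. By pair, both strands were detected in 113 (60.8%), 1 strand in 39 (21.0%) and neither in 34 (18.3%). Pairs of probes that overlap by at least 25 bases on the same strand give a yardstick, since they can read 1 RNA. Among 2715 such pairs, both probes were detected in 73.2%, 1 probe in 4.05% and neither in 22.7%. A pair with a single detected probe was therefore seen in 21.0% of opposite-strand and 4.05% of same-strand pairs. Without geniposide 3, the numbers of opposite-strand pairs with both, 1 and no strand detected were 122, 32 and 32.

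Where both strands were detected, their signals usually lay far apart. Levels are given as log2 processed intensity minus the array's 75th percentile, so a level of 0 is an intensity that 75% of probes stay below. Probes differ in how strongly they bind, so a ratio of signals is not a ratio of RNA amounts, and the same-strand pairs show how large that effect can be. Over the 113 pairs, the brighter strand exceeded the dimmer one by a median of 2.71 log2 units, or 6.55-fold, with quartiles of 1.53 and 4.68 and a range from 0.085 to 10.46. The strands lay under 2-fold apart in 19 pairs, 2- to 4-fold apart in 23, 4- to 32-fold apart in 44 and at least 32-fold apart in 27. At least 4-fold thus separated 71 pairs (62.8%), against 117 of 1988 same-strand pairs (5.89%), whose median ratio was 0.25. Taking 1 pair from each linked group left 91 pairs with both strands detected, a median of 2.95 and 60 pairs at least 4-fold apart.

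The ratio between strands did not follow the length of the overlap. Leaving out miRNA hairpins, opposite-strand pairs sharing 25 to 34, 35 to 49 and 50 to 60 bases had median ratios of 2.69, 3.19 and 2.67 log2 units. In same-strand pairs of the same lengths the medians were 0.66, 0.38 and 0.12. Nor did the level of a strand follow that of its partner. With the probes of a pair taken in name order, their levels had Pearson's r = -0.032 and Spearman's rho = -0.018 over the 113 pairs, against r = 0.942 over the 1988 same-strand pairs. These correlations are across pairs, some of which share a probe, on the same 6 arrays. Each ratio repeated closely between arrays, with a median SD of 0.134 and a largest of 0.377 over the 6 arrays, and the same strand was the brighter one on all 6 arrays in 107 of 113 pairs. The median level of the brighter strand was 2.22 (intensity 1792) and that of the dimmer strand -2.06 (intensity 92.4).

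Taking 1 pair per linked group, the 4 pairs with the largest ratio and both strands detected are described here, and in each the weaker strand lay below -0.72, the median level of all detected probes. RATLNCRNA_20819 stood at 6.37, 6.37 and 6.27 on geniposide arrays 1, 2 and 3 and at 6.47, 6.50 and 6.42 on untreated arrays 1, 2 and 3. Its partner RATLNCRNA_42844 stood at -4.23, -4.34 and -3.94 on the former and at -4.20, -3.87 and -3.82 on the latter. The strands never came near each other, and the ratio of 10.46 ± 0.22 (SD, n = 6) corresponds to 1413-fold. RATLNCRNA_27456 exceeded RATLNCRNA_20395 by 8.90 ± 0.072 (SD, n = 6), or 477-fold. The lead of RATLNCRNA_17738 over RATLNCRNA_40296 was 8.27 ± 0.15 and that of RATLNCRNA_24269 over RATLNCRNA_38469 was 8.15 ± 0.15 (SD, n = 6 each), or 309-fold and 285-fold. Background correction with normexp, which adds a fixed offset, brought these 4 ratios down to between 6.99 and 8.62 and kept their direction.

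Among the 39 pairs with 1 detected strand, the other strand was well above background on no array in 19 and on some arrays in 20. For the 19, the ratio has only a lower bound, which sets the bright strand against the higher of the dim probe's own signal and the lowest detected signal of each array. These bounds ran from 1.63-fold to 296-fold, with a median of 5.98-fold. RATLNCRNA_12473 had levels of 2.93, 2.89 and 2.77 on geniposide arrays and 2.87, 3.04 and 2.97 on untreated arrays, while RATLNCRNA_9851 on the other strand of the same 43 bases was not well above background on any of the 6. The bright strand was at least 296-fold higher in processed intensity. RATLNCRNA_27870 was at least 153-fold above RATLNCRNA_395, RATLNCRNA_1497 at least 116-fold above RATLNCRNA_8634, and RATLNCRNA_24171 at least 87.4-fold above RATLNCRNA_20287. After normexp correction the fitted ratios of these 4 pairs were 3.78 to 5.42 log2 units, each below its bound. The bounds thus hold for processed intensities and not under that correction. Detection limits what can be said of the undetected strands, whose probes were well above background on no array.

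In 30 of the 113 pairs even the weaker strand lay above the 75th percentile of its arrays. RATLNCRNA_31601 stood at 4.54, 4.60 and 4.38 on geniposide arrays and 4.65, 4.64 and 4.66 on untreated arrays, and RATLNCRNA_23751 on the opposite strand at 3.91, 3.96 and 3.89 on the former and 4.13, 4.10 and 4.01 on the latter. Both strands were thus among the bright probes, 1.49-fold apart. In RATLNCRNA_11458 and RATLNCRNA_21215 the mean levels over all arrays were 3.92 ± 0.06 and 2.85 ± 0.028 (SD, n = 6). In RATLNCRNA_43259 and RATLNCRNA_13328, which share 59 bases, they were 4.72 ± 0.063 and 2.37 ± 0.096 (SD, n = 6), and RATLNCRNA_19249 with RATLNCRNA_40684 is described with the comparison of groups. These pairs show that a bright strand can stand beside a bright opposite strand as well as beside an undetected one. The smallest ratios were found among dimmer probes, where RATLNCRNA_39050 and RATLNCRNA_9644 differed by 0.08 ± 0.12 and RATLNCRNA_20446 and RATLNCRNA_30830 by 0.09 ± 0.076 (SD, n = 6), with either strand ahead on some arrays.

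The 3 pairs that share the whole probe read the same 60 base pairs from both strands. RATLNCRNA_37368 had levels of 3.46, 3.39 and 3.38 on geniposide arrays and 3.45, 3.44 and 3.50 on untreated arrays, while RATLNCRNA_30485 stood at 1.10, 1.12 and 1.20 on the former and 1.11, 1.11 and 1.12 on the latter. The strands kept 4.96-fold between them on average, and no array closed the gap. RATLNCRNA_2317 exceeded RATLNCRNA_30281 by 3.58 ± 0.095 (SD, n = 6), or 11.9-fold. RATLNCRNA_30129 was well above background on 4 arrays, 1 of the geniposide and 3 of the untreated group, and RATLNCRNA_4715 on none.

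Poly(A) signal hexamers marked the brighter strand in most pairs that hold one on a single strand. AATAAA and its common variant ATTAAA direct the cleavage and polyadenylation of a transcript's 3′ end. They were searched in the probe as printed, with TTTATT and TTTAAT as their complements, and a probe with overlapping matches was counted once. A hexamer was present in 28.3% of members and 20.4% of all probes. A complement was present in 21.6% of members and 6.98% of all probes, a difference that the pairing itself brings about in part, because a hexamer inside a shared stretch puts its complement on the partner. In 58 pairs exactly 1 strand held a hexamer, in 23 both strands did and in 105 neither did. The strand with the hexamer was the brighter one in 47 of the 58 pairs (81.0%), and its median lead over the other strand was 3.55 log2 units. Counting pairs with both strands detected alone, it was brighter in 36 of 45, and with 1 pair per linked group in 36 of 46. It was the sole detected strand in 11 pairs, while the strand without it was the sole detected strand in 1. The shared stretch of RATLNCRNA_20819 holds ATTAAA and that of RATLNCRNA_12473 AATAAA, and both are the brighter strand, whereas in RATLNCRNA_24269 the hexamer lies on the dimmer partner. This grouping was chosen after the values were seen and is a description.

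Most pairs with no detected strand lay in miRNA hairpins. By exact match to RefSeq's hairpin sequences, 34 pairs hold at least 1 probe inside a hairpin, 31 of them with both probes named, and 63 member probes are concerned. Hairpin loci overlap on opposite strands of GRCr8 in 28 of these pairs. In the other 3 pairs with both probes named, the matching sequence belongs to a related hairpin elsewhere, Mir181a2 on chromosome 3 with Mir3570 on chromosome 13, and Mir3587 on chromosome 4 with probes of Mir29b2 on chromosome 13. Only 10 of the 63 hairpin probes were detected (15.9%), and 45 were well above background on no array. Of all 418 array probes inside a hairpin, 110 were detected (26.4%). The pairs split into 27 with no strand, 4 with 1 strand and 3 with both strands detected, against 7, 35 and 110 of the 152 other pairs. The mature miRNAs at these loci are 17 to 24 bases long, shorter than a probe, and the signals are not read here as levels of the mature miRNAs.

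The brightest hairpin strand was RATLNCRNA_7181 in Mir3578, on the minus strand at chr6:134579438-134579554 of GRCr8. Its levels were -0.21, -0.39 and -0.35 on geniposide arrays and -0.21, -0.22 and -0.23 on untreated arrays. RATLNCRNA_17052 in Mir369, on the plus strand at chr6:134579459-134579537, was well above background on no array. The Mir3578 strand was thus at least 33.4-fold brighter in processed intensity over the 6 arrays. Mir369 belongs to a large imprinted miRNA cluster, and 8 hairpin pairs lie on chromosome 6, all but Mir203 with Mir3545 between chr6:134321142 and chr6:134579554. In that stretch Mir3544 (RATLNCRNA_13239, -2.51 ± 0.081) and Mir337 (RATLNCRNA_43588, -4.46 ± 0.27; SD, n = 6 each) were both detected. Neither strand of Mir299 with Mir299b, Mir376a with Mir3595, Mir380 with Mir3579, Mir539 with Mir3576 or Mir409 with Mir3581 was detected on all arrays.

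The let-7 loci, whose miRNAs share the seed GAGGUAG in let-7a, let-7d, let-7e and let-7f and are known as regulators of cell growth and differentiation, gave both patterns. RATLNCRNA_21506 in Mirlet7e, at chr1:67350229-67350321 on the plus strand, stood at -2.99, -3.02 and -2.85 on geniposide arrays and -2.81, -2.74 and -2.91 on untreated arrays. RATLNCRNA_15421 in Mir3596c, at chr1:67350220-67350336 on the minus strand, stood between -3.42 and -2.98 over the 6 arrays. The Mirlet7e strand was the brighter one on 5 of 6 arrays, by a mean of 0.28 ± 0.26 (SD, n = 6), little more than its spread. In the Mirlet7f-1 locus on chromosome 17, RATLNCRNA_3391 of Mirlet7f-1os, the hairpin that holds let-7f-5p, was detected at -4.16 ± 0.12 (SD, n = 6). RATLNCRNA_10647 of Mirlet7f-1, which on the other strand holds miR-3596d, was detected on no array. Mirlet7a-2 with Mir3596a and Mirlet7d with Mir3596b had no strand detected on all 6 arrays, although the Mirlet7d probe passed on 5.

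Other loci with a detected strand were Mir24-1, at -4.01 ± 0.29, opposite Mir3074, at -4.35 ± 0.26, and Mir3597-3, at -3.37 ± 0.26 (SD, n = 6 each), opposite Mir9-3, which was detected on no array. RATLNCRNA_2510 in Mir29c was detected at -2.75 ± 0.062 (SD, n = 6), and its partner RATLNCRNA_40646, which is not in a listed hairpin, on no array. The miRNAs miR-29c-3p and miR-29b-3p share the seed AGCACCA, but neither strand of the Mir29b1 and Mir3587 locus was detected. Both strands were also well above background on no array at Mir122 with Mir3591, known from liver, at Mir208a with Mir3546, known from heart, and at Mir183 with Mir3553, Mir200a with Mir3548, Mir200c with Mir3575 and Mir203 with Mir3545. Of the 12 hairpin probes that could be compared between groups, 10 were detected on all 6 arrays. Among those 10, geniposide minus untreated ran from -0.14 to 0.33 log2 units, and the lowest adjusted p was 0.417 (limma). RATLNCRNA_32734 in Mir193a (-0.38) and RATLNCRNA_27013 in Mirlet7d (-0.27) were well above background on 5 arrays. They passed the filter through 1 group alone, so their differences are given as values with no test.

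Geniposide-treated and untreated samples differed little at these probes. Testing with limma required a probe to be well above background throughout at least 1 of the groups (3 arrays), which held for 256 members and 29246 probes in all, and p-values were adjusted over all of these. None of the 256 members passed an adjusted p of 0.05 (0 of 29246 probes, 0%, did), and the lowest adjusted p among them was 0.137. Other variance and background settings called members, 3 with a trended and robust variance model and 1 with normexp and quantile scaling. The share of all tested probes called under those settings is not given, so these counts are not read as a result about the members. At an unadjusted p under 0.05 there were 26 members (10.2%), 11 higher and 15 lower with geniposide, against 12.4% of all tested probes (7.33% higher and 5.05% lower). Geniposide and untreated arrays did not overlap at 49 members (19.1%), 18 higher and 31 lower, against 21.2% of all tested probes (9.7% higher and 11.5% lower). Both shares lay close to those of the whole array. Of the 256 members, 240 were detected on all 6 arrays. The others passed the filter through 1 group alone and are included in these counts, and no count by p-value without them is given. Among the 240, 46 did not overlap. No share over all probes so detected is given, so the 46 are not read as a result about the members. The median difference was -0.018 log2 units in members and -0.012 in all tested probes, and the median size 0.0748 and 0.0821.

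Only RATLNCRNA_38657 and RATLNCRNA_24924 differed by 2-fold or more as measured, and neither was detected on all 6 arrays. Both passed the filter through the geniposide group alone, where they were higher, and lay near the detection limit in the untreated group, so their differences are given as values with no test. RATLNCRNA_38657 was well above background on 3 geniposide arrays and 1 untreated array, and RATLNCRNA_24924 on 3 and 2. RATLNCRNA_38657 stood at -5.15, -3.04 and -2.51 on geniposide arrays and -5.68, -5.30 and -5.18 on untreated arrays, a difference of 1.82. Geniposide 2 and 3, which share a row of the slide with no untreated array, were the high ones, and geniposide 1 lay just above the highest untreated array. Its partner RATLNCRNA_13925 stood at -1.42, -1.44 and -1.41 with geniposide and -1.56, -1.49 and -1.47 without. RATLNCRNA_24924 stood at -4.15, -4.02 and -4.26 with geniposide and -4.79, -4.75 and -6.04 without, a difference of 1.05. Untreated 3 was far below the other arrays and below the lowest detected signal of its array, -5.39.

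Agreement between the strands was read from the 126 pairs with both strands tested. Of these, 113 had both strands detected, and in the rest at least 1 strand passed the filter through 1 group alone. The differences had the same sign in 80 pairs (63.5%), 35 with both strands higher and 45 with both lower with geniposide, and opposite signs in 46. Same-strand pairs had the same sign in 1573 of 2046 (76.9%). Of all tested probes, 45.8% were higher with geniposide, so unrelated probes would also often agree in sign. How often they did was not measured. Spearman's rho between the strands' differences was 0.238 over the 126 opposite-strand pairs and 0.662 over the 2046 same-strand pairs, across pairs read on the same arrays. With 1 pair per linked group, 63 of 103 had the same sign. Pairs under 4-fold apart had the same sign in 32 of 44 and pairs at least 4-fold apart in 48 of 82. Without geniposide 3 the count of same-sign pairs was 71 of 126. Since both strands are read on the same arrays, deviations of an array enter both differences, and their part in the agreement was not tested.

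In 8 pairs the groups did not overlap on either strand, and 7 of these had the same sign on both. The 8 pairs are 6.35% of the 126, against 7.37% of all 2172 overlapping pairs with both probes tested, so the share lay near the background. RATLNCRNA_21797 stood at -1.31, -1.14 and -1.05 with geniposide and -1.37, -1.41 and -1.58 without, a difference of 0.28 ± 0.09 (SE; limma adjusted p = 0.304). On the other strand RATLNCRNA_31288 stood at -1.75, -1.96 and -1.67 with geniposide and -2.25, -2.36 and -2.23 without, a difference of 0.49 ± 0.088 (SE; limma adjusted p = 0.137). Every geniposide array was above every untreated array on both strands, yet neither passed the threshold, and the RATLNCRNA_31288 difference was 0.15 after normexp correction. The single exception in sign was RATLNCRNA_45652 with RATLNCRNA_13484, described further on. At an unadjusted p under 0.05 on both strands there were 3 pairs, all of the same sign, and 20 pairs had it on 1 strand. These are 2.38% and 15.9% of the 126, against 2.49% and 9.44% of all 2172 overlapping pairs.

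RATLNCRNA_19249 was at 2.88, 2.97 and 2.91 with geniposide and 3.08, 3.11 and 3.06 without, and its partner RATLNCRNA_40684 from 1.97 to 2.15 with geniposide and from 2.19 to 2.26 without. Both strands were lower on every geniposide array, with differences of -0.16 and -0.18 (limma adjusted p = 0.312 and 0.353). RATLNCRNA_4333 and RATLNCRNA_24031 differed by -0.14 and -0.14 (limma adjusted p = 0.339 and 0.374), also with no overlap of the groups. In these pairs the ratio between the strands was nearly the same in both groups, 0.88 and 0.86 in the former and 0.71 and 0.71 in the latter.

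Differences of the ratio between groups were tested with limma over all 2172 overlapping pairs of either orientation. None of the 126 opposite-strand pairs passed (0 of 2172, 0%), with a lowest adjusted p of 0.316. At an unadjusted p under 0.05 there were 24 pairs (19.05%), from 15 linked groups, against 7.37% of all 2172. The groups did not overlap in 24 pairs (19.05%), against 15.1% of all. In 18 of the 24 pairs under 0.05 the strands lay closer together with geniposide and in 6 farther apart. The 18 include all 6 pairs of the largest linked group. They also include RATLNCRNA_13925 with RATLNCRNA_38657, whose dim probe passed the filter through the geniposide group alone. No split by linked group is given, so the 18 are not independent pairs. Over all 126 the ratio was lower in 76 and higher in 50, again with some pairs sharing a probe. The median SD of a ratio over arrays was 0.134 in opposite-strand and 0.0622 in same-strand pairs with both probes detected. In the test, limma drew the variance of each pair toward a value common to all 2172 pairs, of which 2046 are same-strand pairs. The part of this in the 19.05% of opposite-strand pairs under 0.05 was not tested, so that share is not read as an excess over 7.37%.

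The group of 6 linked pairs holds several of the lowest p-values. RATLNCRNA_29681 stood at 1.91, 1.90 and 2.08 with geniposide and 1.61, 1.56 and 1.47 without, a difference of 0.42 ± 0.072 (SE; limma adjusted p = 0.137). RATLNCRNA_35108, which reads the same strand, differed by 0.44 ± 0.084 (SE; limma adjusted p = 0.15). On the opposite strand the differences were 0.0075 ± 0.062 for RATLNCRNA_723, 0.084 ± 0.063 for RATLNCRNA_13987 and -0.022 ± 0.062 for RATLNCRNA_22541 (SE; limma adjusted p = 0.967, 0.612 and 0.899). The ratio of RATLNCRNA_723 to RATLNCRNA_29681 was 0.22, 0.34 and 0.23 with geniposide and 0.62, 0.64 and 0.77 without, with no overlap (difference -0.41 ± 0.057, SE; limma adjusted p = 0.316). These 6 pairs are made of 5 probes, and they were counted as 1 linked group.

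A dim strand that was higher with geniposide beside a bright strand with a smaller difference was also measured in RATLNCRNA_4542 with RATLNCRNA_1872 and in RATLNCRNA_45652 with RATLNCRNA_13484. In both pairs, and in RATLNCRNA_723 with RATLNCRNA_29681, bases beside the shared stretch differ, so these pairs have mismatches in the overlap of the probes. The stretch shared by RATLNCRNA_45652 and RATLNCRNA_13484 is a unit repeated in tandem. Whether the probes of these pairs read 1 locus was not tested. RATLNCRNA_1872 stood at -1.12, -0.96 and -0.95 with geniposide and -1.21, -1.29 and -1.34 without, and RATLNCRNA_4542 at 4.19, 4.29 and 4.38 with and 4.34, 4.27 and 4.28 without. Their ratio differed by -0.28 ± 0.038 (SE; limma adjusted p = 0.316). RATLNCRNA_13484 stood at -1.03, -1.06 and -0.78 with geniposide and -1.24, -1.34 and -1.26 without, and RATLNCRNA_45652 at 4.62, 4.69 and 4.68 with and 4.79, 4.69 and 4.78 without. Here the dim strand was higher and the bright strand lower on every geniposide array, though geniposide 2 and untreated 2 nearly met on the bright strand, and the ratio differed by -0.42 ± 0.075 (SE; limma adjusted p = 0.316). RATLNCRNA_34552, the brighter strand of its pair, was lower, at -2.02, -1.89 and -1.96 with geniposide and -1.74, -1.60 and -1.68 without (difference -0.28 ± 0.063, SE; limma adjusted p = 0.188). Its partner RATLNCRNA_34846 differed by 0.09 ± 0.12 (SE), and the strands of this pair also lay closer together with geniposide. Within the first slide row, which holds geniposide 1 and all untreated arrays, the differences were 0.37 for RATLNCRNA_29681, 0.53 for RATLNCRNA_31288, 0.14 for RATLNCRNA_21797, 0.16 for RATLNCRNA_1872, 0.25 for RATLNCRNA_13484, -0.34 for RATLNCRNA_34552 and -0.11 for RATLNCRNA_34846.

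Over all pairs with both strands detected, the median ratio on geniposide arrays 1, 2 and 3 was 2.75, 2.65 and 2.46 log2 units. Untreated arrays 1, 2 and 3 had 2.81, 2.75 and 2.84. The group means were 2.62 ± 0.15 and 2.80 ± 0.044 (SD, n = 3), a difference of -0.19. Geniposide 3 was the lowest, and geniposide 1 lay just under untreated 2, so the groups did not overlap. Without geniposide 3 the difference was -0.11. It was -0.055 within the first slide row and -0.011 after normexp background correction. The lowest signal counted as well above background was also highest on geniposide 3, at -4.78 against -5.59 to -5.17 on the other arrays, and its part in the ratios was not tested.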

How the data were processed

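RNA from 3 geniposide-treated and 3 untreated samples of INS-1 cells was amplified, labelled with Cy3 and read on 1-colour Agilent arrays. The deposited scanner files hold intensity values, which per the file headers came from Agilent Feature Extraction 12.0.3.1 (the submitters' processing notes name version 10.7), with background surface and spatial trend removed within each array. The authors also deposited a log2 table with normalization not stated in those sources; it served as an alternative.

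Control spots and marked outlier spots were left out, spots of 1 probe averaged, and log2 processed intensity had the array's 75th percentile over 45718 probes subtracted. Pairs were found by exact matches of 25 bases between a probe and the reverse complement of another. The comparison of groups used lmFit and eBayes of limma 3.58.1 under R 4.3.3 (two-sided, Benjamini-Hochberg over 29246 probes, or over 2172 pairs for ratios), after both fits were tested on simulated data. For a strand well above background on no array, the fold is a lower bound in processed intensity. The number of arrays limits the precision.

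The members and lists were chosen with earlier results of these data known, and the hexamer and hairpin groupings after their values were seen. Pairs described singly had, at 1 pair per linked group, the brightest weaker strand, the largest ratio, the brightest strand with an undetected partner, or the lowest p for a difference or for a ratio change; pairs past 2-fold, with whole-probe overlap, closest strands or both strands at p under 0.05 were added, as were hairpin pairs with a detected strand. Hairpins and mature miRNAs were matched by sequence to RefSeq on GRCr8. Same-numbered samples were not paired: deviations correlated by -0.0039, 0.018 and -0.097. Alternatives covered the stretch length, scaling, the deposited table, filters, the variance model, blocks and left-out arrays.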

Additional observations from a re-analysis of the deposited data

How the results depend on the processing

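Of 163 comparisons of a main count with its value under an alternative, 148 stayed within 1.5 times and 15 moved. With a stretch of 20 bases, 60 pairs had 1 strand detected. With 60 bases, 3 pairs remained, 2 with both strands detected (both of them at least 4-fold apart), 0 with 1 and 1 with none. There, 0 members had groups that do not overlap, and 0 of 2 pairs had the same sign. Members past the adjusted threshold numbered 1 with normexp (RATLNCRNA_29681, limma adjusted p = 0.0339) and 3 with a trended, robust variance (RATLNCRNA_29681, RATLNCRNA_31288 and RATLNCRNA_35108, limma adjusted p = 0.0284, 0.0479 and 0.0356). For these calls, and for the counts without overlap that follow, no share over all probes is given, so neither is read as a result about the members. In the first slide row alone, 1 geniposide array against 3, members without overlap numbered 152. With single arrays omitted there were 65 to 87 of these, which 2 against 3 arrays make easier to reach, 113 to 122 pairs with both strands detected, 32 to 40 with 1, 32 to 34 with none, 71 to 79 at least 4-fold apart, 70 to 82 of the same sign, and 0 members or ratios called.

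The replicate number as a block gave 0 calls and 80 of 126 pairs of the same sign. Differences near 0 changed sign. RATLNCRNA_4542 gave 0.065 with normexp, 0.029 with quantile scaling, 0.032 in the deposited table, and -0.054 to 0.041 with 1 array left out. RATLNCRNA_723 gave -0.085 with a fixed block for the slide row and in the first row alone, and -0.032 to 0.054 with 1 array left out. RATLNCRNA_34846 gave -0.11 in both row settings and -0.00019 in the deposited table. The ratio change of RATLNCRNA_21797 over RATLNCRNA_31288 was 0.050 with normexp. The causes were not tested. Faint strands lie near the arrays' lowest detected signal, so their ratios are the least certain.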
